A study of Mus musculus with 4 samples.

Results

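The glucocorticoid receptor gene Nr3c1 and 8 of its known target genes in muscle, Fkbp5, Tsc22d3, Klf9, Klf15, Zbtb16, Sgk1, Errfi1 and Ddit4, were followed through 4 mouse gastrocnemius libraries. The 9 genes were taken by symbol, as the receptor and genes known to respond to it, with earlier results of these data known, and each had 1 row among the 23282 gene rows of the data. The study asked how treadmill running and a tumor burden act, alone and together, on the transcriptome of skeletal muscle. RNA of the gastrocnemius, a calf muscle, was read from the 3′ ends of transcripts (QuantSeq) in 4 groups of male CDF1 mice, with 1 library a group. The normal control library (E-T-) came from mice with neither exercise nor tumor, normal exercise (E+T-) from healthy mice that ran, cancer control (E-T+) from sedentary mice with tumors, and cancer exercise (E+T+) from mice that had both. The tumor groups received CT26 cells, a mouse colorectal cancer line, through the tail vein. The running groups ran at high intensity on a treadmill on alternate days. The labels give postnatal day 28 for all mice, which is the age at purchase in the study's methods and so is probably not the age at sampling. Muscles were taken under the same anaesthesia at the end of the study. The labels give 10 mice in a group and the study describes 1 representative mouse a group, so whether a library is 1 animal or a pool was not settled. With 1 library a group, no difference below has a replicate check and none was tested. The interval beside a value covers the counting error of the reads and not the spread between animals. Runs were held in the morning; the time from the last run to sampling and the hour of sampling were not given in the sources used here.

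Glucocorticoids such as corticosterone are adrenal steroids released in stress and fasting. They enter the cell and bind the glucocorticoid receptor, which is held ready in the cytoplasm by HSP90 and its partner proteins, and the loaded receptor moves to the nucleus, binds DNA and raises or lowers transcription. In skeletal muscle the receptor is known for driving protein breakdown, amino acid use and insulin resistance, and excess glucocorticoid causes muscle wasting. Among its targets, FKBP51 (Fkbp5) feeds back on the receptor, KLF15, KLF9 and PLZF (Zbtb16) are transcription factors, GILZ (Tsc22d3) restrains inflammatory signalling, and SGK1, MIG6 (Errfi1) and REDD1 (Ddit4) act on growth factor and mTORC1 signalling.

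The receptor's classic DNA element is a palindrome of 15 letters whose arms, AGAACA and its reverse complement, are separated by 3 bases of any kind. RefSeq promoter windows of assembly GRCm38.p6, from 250 bases before to 50 bases after a transcript start, were searched on both strands for the exact palindrome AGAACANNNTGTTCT and for a single arm (the palindrome holds both). For the members the search covered 15 windows, from 7 of the 9 genes. No window of Nr3c1 or Zbtb16 was among them. The windows shown are the Sgk1 window with the palindrome, the Tsc22d3 window with an arm, and those of Ddit4 and Klf15, 2 targets with large differences between libraries and no match. Capitals mark the matches.
Sgk1, chr10:21993640-21993939, plus strand: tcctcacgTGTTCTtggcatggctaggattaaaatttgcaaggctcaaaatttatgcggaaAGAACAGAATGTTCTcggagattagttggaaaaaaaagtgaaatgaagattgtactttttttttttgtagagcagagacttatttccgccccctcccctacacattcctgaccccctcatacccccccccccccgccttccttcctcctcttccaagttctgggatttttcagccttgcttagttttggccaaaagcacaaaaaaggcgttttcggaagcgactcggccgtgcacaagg
Tsc22d3, chrX:140600473-140600772, minus strand: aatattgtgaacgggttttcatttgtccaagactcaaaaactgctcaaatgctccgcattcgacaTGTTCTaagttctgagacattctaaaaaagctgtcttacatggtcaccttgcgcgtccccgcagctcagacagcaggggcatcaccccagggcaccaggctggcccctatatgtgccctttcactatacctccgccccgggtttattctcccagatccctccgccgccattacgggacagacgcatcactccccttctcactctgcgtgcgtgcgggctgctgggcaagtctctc
Ddit4, chr10:59951721-59952020, minus strand: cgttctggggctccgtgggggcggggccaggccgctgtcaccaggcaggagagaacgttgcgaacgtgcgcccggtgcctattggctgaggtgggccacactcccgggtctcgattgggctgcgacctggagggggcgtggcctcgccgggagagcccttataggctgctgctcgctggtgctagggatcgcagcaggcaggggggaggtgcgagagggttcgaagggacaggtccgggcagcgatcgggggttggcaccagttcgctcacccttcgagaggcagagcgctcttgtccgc
Klf15, chr6:90462326-90462625, plus strand: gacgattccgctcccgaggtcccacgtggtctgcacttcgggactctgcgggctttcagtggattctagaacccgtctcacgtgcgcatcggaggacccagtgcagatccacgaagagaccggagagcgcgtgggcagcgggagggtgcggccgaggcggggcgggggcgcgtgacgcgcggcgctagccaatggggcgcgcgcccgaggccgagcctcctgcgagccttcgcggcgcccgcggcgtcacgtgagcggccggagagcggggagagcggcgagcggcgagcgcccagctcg
The Sgk1 window held the whole palindrome, at chr10:21993701-21993715, from 189 to 175 bases before the start of one of its 6 annotated transcript starts with a window, and it held 3 arms in all. The exact palindrome was present in 3 of 32851 promoter windows, 0.00913%. The Tsc22d3 window held 1 arm, 185 bases before the start. An arm was present in 4 of the 15 member windows, from 2 genes, and in 18.97% of all windows. No match was present in the other 11 windows, which says only that these letters are not in these stretches, and a match does not show that the receptor binds there.

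The 4 libraries held 10647343 to 13226068 reads in genes, and between 14427 and 14830 genes had at least 1 read. The genes lie in assembly GRCm38 (GENCODE M21) at chr17:28399094-28517527 (Fkbp5, minus strand), chrX:140539528-140600659 (Tsc22d3, minus), chr19:23141226-23168134 (Klf9, plus), chr6:90462576-90475238 (Klf15, plus), chr9:48654297-48836222 (Zbtb16, minus), chr10:21882184-21999903 (Sgk1, plus), chr4:150853919-150868892 (Errfi1, plus) and chr10:59949669-59951834 (Ddit4, minus). Fkbp5 overlaps 4 annotated genes, and Klf9 and Errfi1 overlap 1 each, whose reads could be shared, as the strand use of the counting was not given. Values are normalized read counts, taken back from the deposited log2 values. A difference is given as a log2 fold change, where 1 is a 2-fold difference, with its 95% interval. A gene was called higher or lower when it differed by at least 2-fold and reached a normalized read count of 4 in either library, and "rose" and "fell" are kept for such calls. All 9 genes passed the minimum in every comparison. All 10 muscle fibre markers had reads in every library. In whole muscle, fewer cells of a type and less RNA per cell cannot be told apart.

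Nr3c1, the receptor, stood at normalized read counts of 1253 (E-T-), 1107 (E+T-), 884 (E-T+) and 626 (E+T+). In the deposited values the order was the same whichever factor was added. The level was highest where there was neither and lowest where there were both. None of these differences reached 2-fold. The log2 fold change was -0.18 (-0.29 to -0.06) for exercise in healthy mice and -0.50 (-0.65 to -0.34) for exercise in tumor-bearing mice. For the tumor it was -0.50 (-0.63 to -0.37) without exercise and -0.82 (-0.97 to -0.68) with it. The value for exercise in healthy mice moved to -0.02 under total read scaling. It moved to 0.01 with reads thinned to the smallest library. In order of level among the 9 genes Nr3c1 was number 3 in both healthy libraries, number 8 in E-T+ and number 7 in E+T+.

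Fkbp5 encodes FKBP51, a partner of HSP90 that lowers the receptor's affinity for hormone and is itself induced by the receptor. Normalized read counts were 562 (E-T-), 289 (E+T-), 3501 (E-T+) and 3417 (E+T+). Both tumor libraries stood far above both healthy ones. It rose 6.22-fold with the tumor in sedentary mice (log2 fold change 2.64, 2.51 to 2.78) and 11.8-fold in exercised mice (3.56, 3.40 to 3.72). Exercise gave a log2 fold change of -0.95 (-1.15 to -0.76) in healthy mice, just inside the 2-fold limit. In tumor-bearing mice it gave -0.04 (-0.11 to 0.04), so no difference was detectable at this depth. Fkbp4 encodes FKBP52, the related HSP90 partner that favours hormone binding. Its levels, as normalized read counts, were 2229 (E-T-), 2627 (E+T-), 1213 (E-T+) and 2326 (E+T+), and it was not called in any comparison. The ratio of Fkbp5 to Fkbp4 was 0.252, 0.110, 2.89 and 1.47 in the same order. Fkbp4 was thus the more abundant of the pair in healthy muscle and Fkbp5 in tumor-bearing muscle.

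Tsc22d3 encodes GILZ, which binds and restrains NF-κB and AP-1. The 4 libraries held it at 3443 (E-T-), 3602 (E+T-), 5430 (E-T+) and 5133 (E+T+). It was high throughout and moved least of the 8 targets with the tumor. The tumor gave a log2 fold change of 0.66 (0.59 to 0.72) in sedentary mice, a 1.58-fold difference, and 0.51 (0.45 to 0.57) in exercised mice. Exercise gave 0.07 (-0.0009 to 0.13) in healthy and -0.08 (-0.14 to -0.02) in tumor-bearing mice. The arm shown above lies in the window of the most distal of its 3 annotated starts.

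Klf9 and Klf15 encode Krüppel-like transcription factors that glucocorticoids induce in many tissues. KLF15 is known for switching muscle towards the breakdown of branched-chain amino acids. Klf9 stood at normalized read counts of 4098 (E-T-), 2756 (E+T-), 10099 (E-T+) and 7664 (E+T+). It rose with the tumor, 2.46-fold in sedentary mice (1.30, 1.25 to 1.36) and 2.78-fold in exercised mice (1.47, 1.42 to 1.53). Exercise gave log2 fold changes of -0.57 (-0.64 to -0.51) and -0.40 (-0.44 to -0.35), in healthy and in tumor-bearing mice, neither of them called.

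Klf15 stood at 187 (E-T-), 42.0 (E+T-), 1332 (E-T+) and 586 (E+T+), from 176, 52, 1244 and 541 reads. It was the one gene of the 9 that was called in all 4 comparisons. With the tumor it rose 7.08-fold in sedentary mice (2.82, 2.60 to 3.07) and 13.7-fold in exercised mice (3.77, 3.38 to 4.24). With exercise it fell in healthy mice, by 2.13 on the log2 scale (-2.63 to -1.70), and in tumor-bearing mice, by 1.18 (-1.33 to -1.04). The level of cancer exercise was 44.0% of that of cancer control and remained above that of normal control.

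Zbtb16 encodes PLZF, a zinc finger factor that responds to the receptor in many cell types. Its levels were 480 (E-T-), 346 (E+T-), 848 (E-T+) and 725 (E+T+). It rose with the tumor in exercised mice, 2.09-fold (1.06, 0.89 to 1.24), and stood 1.77-fold higher in sedentary ones (0.82, 0.65 to 0.99), under the limit. The exercised-mouse call was lost when libraries were scaled by their total reads, which left 5 genes called in that comparison. Exercise gave -0.47 (-0.66 to -0.28) in healthy and -0.23 (-0.38 to -0.08) in tumor-bearing mice.

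Sgk1 encodes a kinase related to AKT that glucocorticoids and mineralocorticoids induce and that controls ion transport and FOXO factors. In normalized read counts it stood at 1161 (E-T-), 1055 (E+T-), 2696 (E-T+) and 1998 (E+T+). It rose 2.32-fold with the tumor in sedentary mice (1.22, 1.11 to 1.32) and was 1.89-fold higher in exercised mice (0.92, 0.82 to 1.03). The latter missed the 2-fold limit, and its interval reached past it. Exercise gave -0.14 (-0.25 to -0.02) in healthy and -0.43 (-0.52 to -0.34) in tumor-bearing mice. The healthy-mouse difference changed sign under total read scaling, to 0.02.

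Errfi1 encodes MIG6, an inhibitor of the EGF receptor family. The libraries gave normalized read counts of 196 (E-T-), 199 (E+T-), 1510 (E-T+) and 516 (E+T+). The 2 healthy libraries differed by no more than counting error, at 0.03 (-0.25 to 0.31). It rose 7.68-fold with the tumor in sedentary mice (2.94, 2.73 to 3.18) and 2.58-fold in exercised mice (1.37, 1.15 to 1.60). Among tumor-bearing mice it fell with exercise by 1.55 on the log2 scale (-1.70 to -1.40), a 2.92-fold difference, which left cancer exercise at 34.2% of cancer control.

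Ddit4 encodes REDD1, a stress- and glucocorticoid-induced protein that switches off mTORC1, the kinase complex that drives protein synthesis. Levels were 360 (E-T-), 380 (E+T-), 17486 (E-T+) and 7874 (E+T+). The tumor libraries held it at more than 20 times the level of either healthy library. It rose 48.5-fold with the tumor in sedentary mice (5.60, 5.45 to 5.76), a difference that 0.830% of the 14818 genes matched in size, and 20.7-fold in exercised mice (4.37, 4.24 to 4.51). In order of level it was number 7 of the 9 genes in E-T- and number 1 in both tumor libraries. Among tumor-bearing mice it fell with exercise, by 1.15 on the log2 scale (-1.19 to -1.11), to 45.0% of cancer control. In healthy mice exercise gave 0.08 (-0.12 to 0.29), within counting error.

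**Figure D1:**
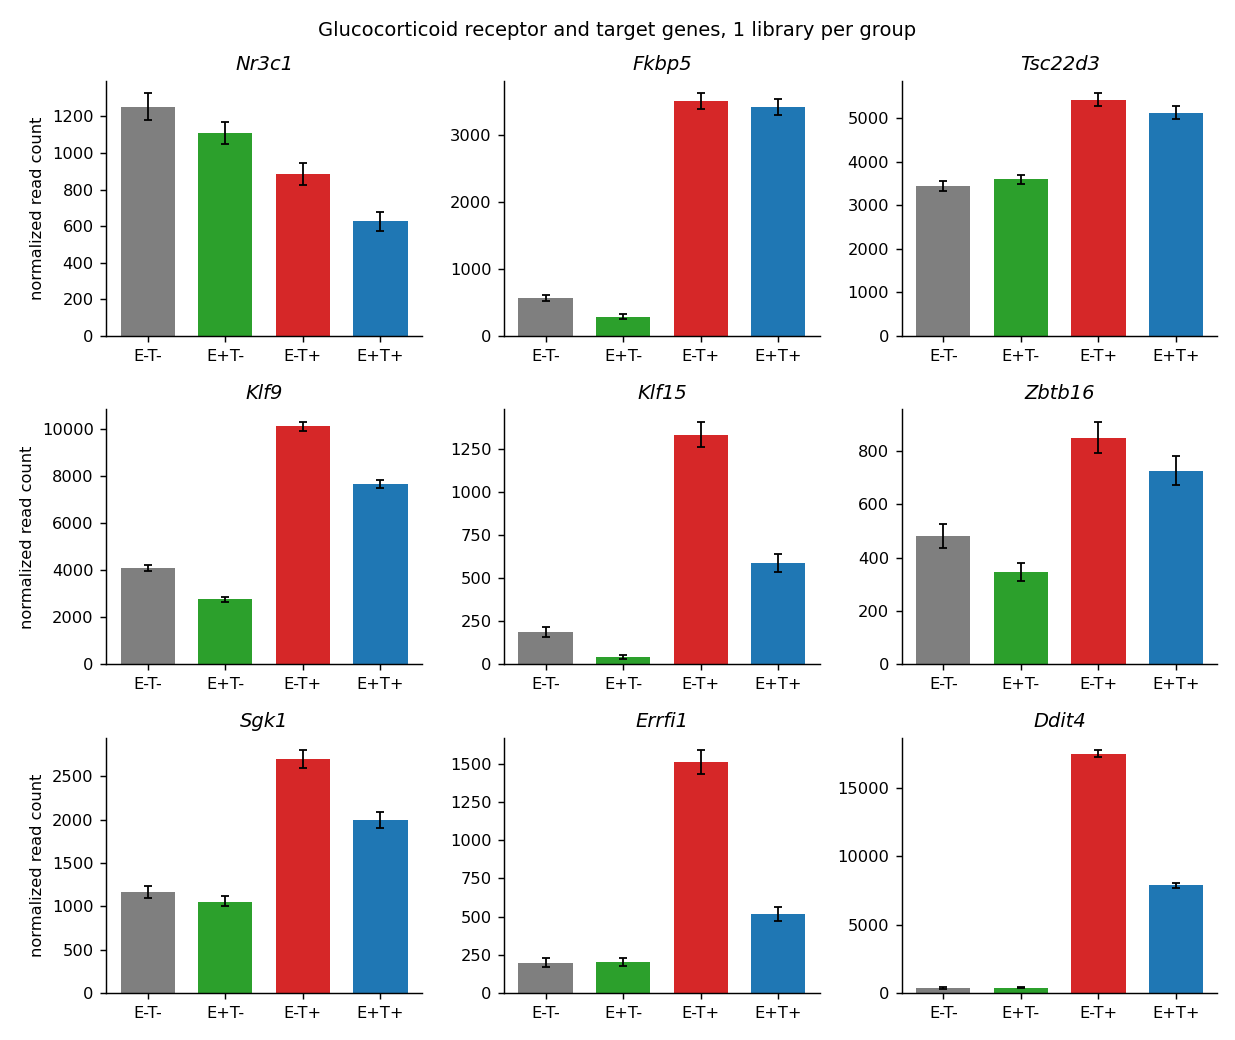
Normalized read count (linear axis from 0, a scale of its own for each gene) of Nr3c1 and its 8 targets in the 4 libraries, 1 library a group; error bars are 95% Poisson counting intervals and do not cover the spread between animals. Each target is highest in cancer control (E-T+), from 848 for Zbtb16 to 17486 for Ddit4, while Nr3c1 is highest in normal control (E-T-), at 1253. For Fkbp5, cancer control and cancer exercise do not differ beyond counting error.

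In the tumor comparison in sedentary mice Nr3c1 lay below 0 and its 8 targets above 0. Nr3c1, at -0.50, was not called, and 68.7% of genes differed by as much. Tsc22d3 and Zbtb16 were not called either. Fkbp5, Klf9, Klf15, Sgk1, Errfi1 and Ddit4 rose, so that 6 of the 9 genes were called higher, and none was called lower. Of 14818 genes tested, 20.9% were called higher and 24.2% lower. The median log2 fold change of the 8 targets was 1.97, against -0.04 over all genes. The counting interval of all 9 genes lay off 0, as it did for 71.5% of all genes.

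With the tumor in exercised mice, 6 genes rose again, Fkbp5, Klf9, Klf15, Zbtb16, Errfi1 and Ddit4, and none fell. Of 14470 genes, 13.9% were called higher and 16.3% lower, and 64.2% had an interval off 0, as did all 9 of these. The targets' median was 1.42, against -0.03. The 2 tumor comparisons use different libraries, and the 6 called in each include 5 that were called in both.

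Exercise in tumor-bearing mice gave a negative log2 fold change for each of the 9 genes, from -0.04 in Fkbp5 to -1.55 in Errfi1. Only Klf15, Errfi1 and Ddit4 fell, 3 of 9, and none rose. Over 14491 genes, 15.6% were called higher and 15.1% lower. The interval lay off 0 for 8 of 9 genes, all but Fkbp5, and for 63.5% of all genes. The targets' median was -0.42, against 0.00 over all genes. The comparison shares the cancer control library with the tumor comparison in sedentary mice, in which the same 3 genes had the largest rises of the 9.

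With exercise in healthy mice Klf15 fell, 1 of 9, and none rose, where 12.1% of 14518 genes were called lower and 9.44% higher. The interval lay off 0 for 6 of 9, and for 56.8% of all genes. The targets' median was -0.30, against -0.01. The exercise effect on Errfi1 was lower by 1.57 on the log2 scale in tumor-bearing than in healthy mice, and that on Ddit4 by 1.23. For Klf15 and Fkbp5 the difference ran the other way, by 0.95 and 0.92. No gene was called in opposite directions by the 2 exercise comparisons, and these differences were not tested.

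**Figure D2:**
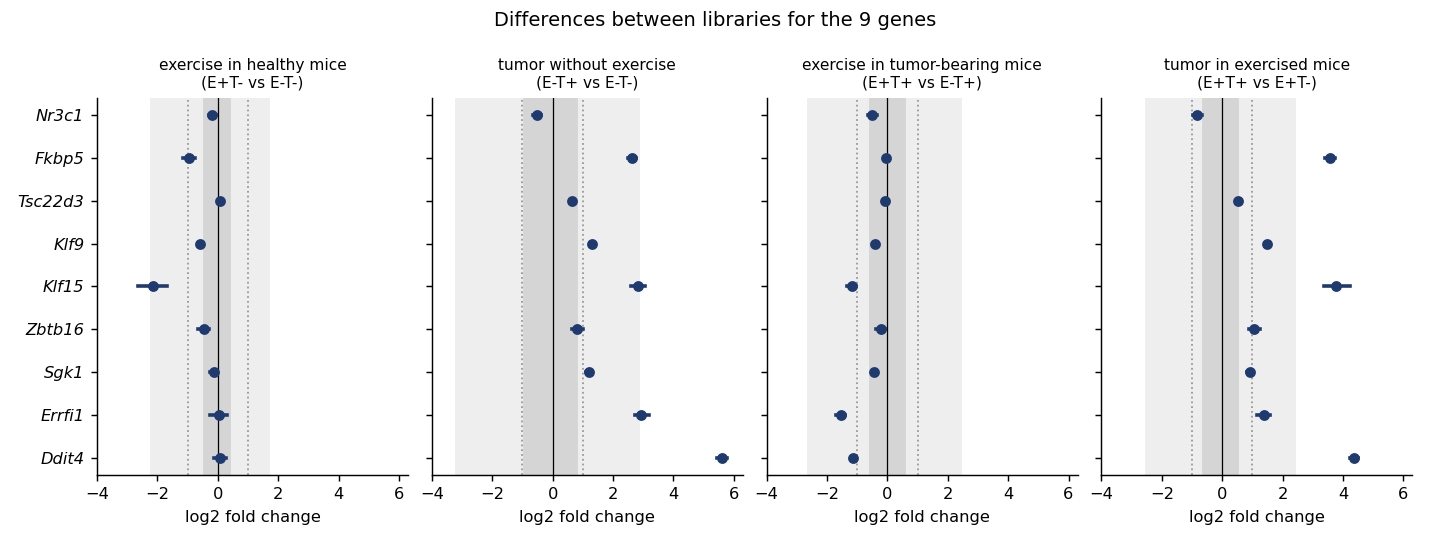
Log2 fold change (points) with the 95% counting interval (bars) of the 9 genes in the 4 comparisons; dark and light grey bands hold the middle 50% and the range from the 5th to the 95th percentile of all genes tested, and dotted lines mark 2-fold. Ddit4 lies outside the light band in both tumor comparisons, at 5.60 and 4.37, and Nr3c1 lies below 0 in all 4. For exercise in healthy mice the sign of Nr3c1 changed with reads thinned to the smallest library.

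Summed over the 8 targets, the level was 10486 (E-T-), 8670 (E+T-), 42901 (E-T+) and 27912 (E+T+). Ddit4 alone made up 3.43% of it in E-T- and 4.38% in E+T-, but 40.8% in E-T+ and 28.2% in E+T+. Counts from 3′ ends are 1 per transcript and were not divided by length. In normal control the order was Klf9, Tsc22d3, Nr3c1, Sgk1, Fkbp5, Zbtb16, Ddit4, Errfi1 and Klf15, in which Nr3c1 and Sgk1, and Errfi1 and Klf15, did not differ beyond counting error. In normal exercise Tsc22d3 led and Klf9 followed, and Nr3c1 and Sgk1, and Ddit4 and Zbtb16, were not apart. In cancer control the order was Ddit4, Klf9, Tsc22d3, Fkbp5, Sgk1, Errfi1, Klf15, Nr3c1 and Zbtb16, with the last 2 not apart. In cancer exercise Ddit4 and Klf9 headed the order and were not apart, nor were Nr3c1 and Klf15.

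Paralogs of the members, genes of shared descent, were read from the same libraries. DDIT4L (REDD2), the relative of REDD1 that also restrains mTORC1, stood at normalized read counts of 13521 (E-T-), 7906 (E+T-), 674 (E-T+) and 1886 (E+T+). Ddit4l fell in both tumor comparisons, in which Ddit4 rose, by 4.33 (log2) in sedentary and 2.07 in exercised mice. Where Ddit4 fell, between the tumor libraries, Ddit4l rose by 1.48. Of the pair's summed level Ddit4 was 2.59% (E-T-), 4.59% (E+T-), 96.3% (E-T+) and 80.7% (E+T+). The sum of the pair was 13880, 8287, 18160 and 9760, a much narrower range than either gene alone. Sgk3, a sister kinase of Sgk1, went from 124 in E-T- to 37.5 in E-T+ and fell by 1.70. Tsc22d4 stood at 369 in E-T- and 187 in E+T+. Klf5 and Klf10 rose with the tumor in sedentary mice, by 1.65 and 1.41. Over the 23 listed paralogs, 21 passed the minimum in that comparison and 4 were called higher and 3 lower. Of all genes, 20.9% were called higher there and 24.2% lower.

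**Figure D3:**
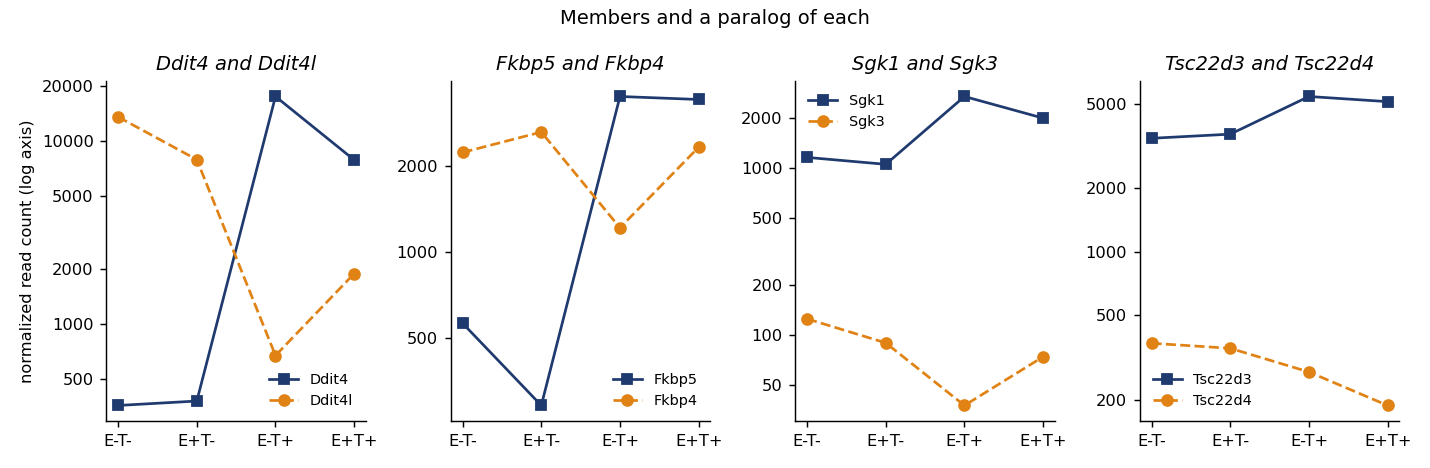
Normalized read count (log axis, not from 0) of 4 members and a paralog of each in the 4 libraries, 1 library a group, joined by lines to ease reading. Ddit4 goes from 360 in normal control to 17486 in cancer control while Ddit4l goes from 13521 to 674, and Fkbp5 lies under Fkbp4 in the healthy libraries and above it in the tumor libraries.

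The machinery around the receptor moved less. Of 16 HSP90 chaperone and cochaperone genes beside Fkbp5, only Hsp90ab1, the constitutive HSP90 gene, was called, with a log2 fold change of 1.15 for the tumor in sedentary mice. None was called in the other 3 comparisons. Hsd11b1 encodes the enzyme that regenerates active glucocorticoid from its inert form inside cells, and stood at 434 (E-T-), 444 (E+T-), 510 (E-T+) and 448 (E+T+). Nr3c2, the mineralocorticoid receptor, had 0 reads in every library, and the limit that 0 reads allow is 3 reads a library. Of 14 coregulators, 2 were higher and 2 lower with the tumor in sedentary mice, where 20.9% of all genes were higher and 24.2% lower. Sirt1, a deacetylase, rose by 1.44 and Ncoa3, a coactivator, by 1.32, and Hexim1, which restrains transcription elongation, fell by 1.34.

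Other genes known to be induced by glucocorticoids were counted next to the members, from a list of 38. The list, like the members, was chosen with earlier results of these data known. With the tumor in sedentary mice 23 of the 36 that passed the minimum rose and 4 fell, with a median log2 fold change of 2.05. Over all genes, 20.9% rose and 24.2% fell there, and 13.9% rose and 16.3% fell with the tumor in exercised mice. Of the listed genes 27 rose and 2 fell with the tumor in exercised mice, with a median of 1.77, or 1.82 with genes at 0 to 3 reads set to 3 reads. Mt1 and Mt2 encode metallothioneins, which bind zinc. Mt1 went from 1293 in E-T- to 151924 in E-T+, or 6.88 on the log2 scale, and Mt2 from 727 to 101914, or 7.13. Lcn2, an iron-scavenging protein of neutrophils and inflamed tissue, had 5.37 and 1434. Sesn1, a stress-induced brake on mTORC1, went from 140 to 3627. Per1, a clock gene under direct receptor control, went from 41.5 to 649. Irs2, an insulin receptor substrate, went from 9.6 to 173. Among the 4 that fell, Angptl4 went from 168 to 82.5, or -1.02 on the log2 scale.

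Between the tumor libraries, 13 of 36 listed genes fell with exercise and none rose (median -0.53), where 15.1% of all genes fell and 15.6% rose. Between the healthy libraries 9 of 35 fell and 2 rose (median -0.39), where 12.1% of all genes fell and 9.44% rose. The largest falls of listed genes between the healthy libraries were in genes of fuel use. Pdk4, which shuts off glucose oxidation, fell by 4.23 on the log2 scale, from 427 to 21.7 normalized read counts. Pck1, of glyceroneogenesis and gluconeogenesis, fell by 3.32, and Angptl4, an inhibitor of lipoprotein lipase, fell by 2.80. Adipocyte markers were lower in the same library, with summed levels of 16192 (E-T-), 5936 (E+T-), 4596 (E-T+) and 10314 (E+T+), and 6 of 6 had reads in both healthy libraries. Their part in these falls, and in that of Klf15, was not tested.

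**Figure D4:**
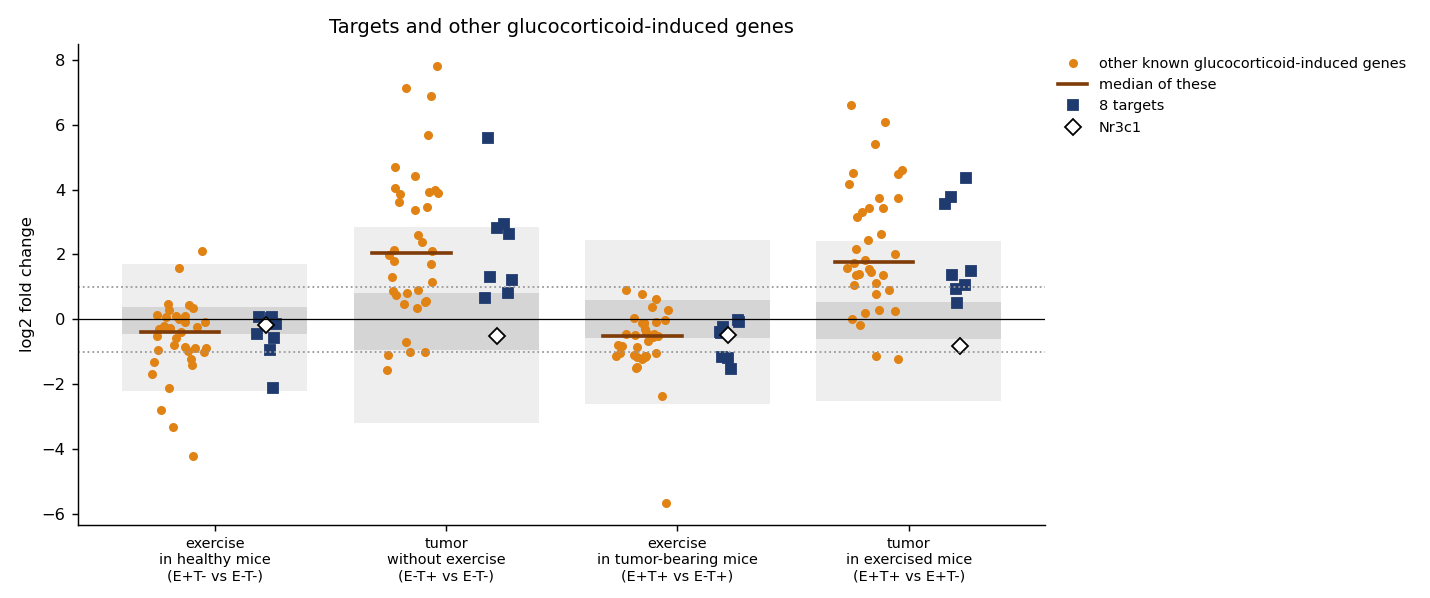
Log2 fold change (y axis) in each comparison of the other known glucocorticoid-induced genes that passed the minimum (orange points, brown line at the median), the 8 targets (blue squares) and Nr3c1 (diamond); dark and light bands hold the middle 50% and the 5th to 95th percentile range of all genes and dotted lines mark 2-fold. The median of the listed genes is 2.05 and 1.77 in the tumor comparisons and -0.39 and -0.53 in the exercise comparisons.

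Pathways downstream of single members were also counted. Of 14 amino acid catabolism genes tied to KLF15, 2 were higher and 1 lower with the tumor in sedentary mice. With the tumor in exercised mice 4 were higher and none lower. Exercise gave 3 lower and none higher in healthy mice, and 1 higher and 1 lower in tumor-bearing mice. Over all genes, 20.9% were higher and 24.2% lower with the tumor in sedentary mice, and 13.9% and 16.3% in exercised mice. With exercise the shares were 9.44% and 12.1% in healthy mice and 15.6% and 15.1% in tumor-bearing mice. Bcat2, the first enzyme of branched-chain amino acid breakdown, stood at 220 (E-T-), 93.1 (E+T-), 188 (E-T+) and 268 (E+T+). Of 13 mTORC1 brakes beside Ddit4, 3 were higher and 4 lower with the tumor in sedentary mice, near the shares of all genes given above. Eif4ebp1, the translation repressor that mTORC1 inactivates, had 1107, 1188, 13596 and 13891 and was called in both tumor comparisons, while Sesn3 and Tbc1d7 fell. Of the EGF receptor axis that MIG6 restrains, 7 genes passed the minimum with the tumor in sedentary mice, and 2 were higher and none lower. One was Areg, a ligand, with 20 reads in E-T+ and 0 elsewhere. Egfr itself gave 0.40. Of 13 genes in the kinase pathway of SGK1, 2 were higher and 1 lower with the tumor in sedentary mice. Among them Slc9a3r1 rose by 1.06 and Wnk4 fell by 1.26. Ndrg2, a substrate of SGK1, gave 0.80 there and -0.62 with exercise in tumor-bearing mice, neither of them called.

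In healthy mice, 5 inflammatory genes that glucocorticoids are known to repress were higher with exercise and 2 lower, of 12 that passed the minimum. Of 12, 7 were higher and 1 lower with the tumor in sedentary mice, with a median of 1.17, or 1.19 with genes at the floor set to 3 reads. Most were at few reads. Ccl2, a monocyte chemokine, went from 17 reads (E-T-) to 77 (E-T+). With exercise in tumor-bearing mice 8 of 11 were lower and 1 higher, with a median of -1.28. With the tumor in exercised mice 2 of 11 were higher and 4 lower, and the median was -0.78, or -0.39 at the floor. In the clock list, of 19 genes, 8 were higher and 2 lower with the tumor in sedentary mice, and Cry2, a repressor of the clock and of the receptor, went from 146 to 1743 normalized read counts. The shares of all genes called in each comparison are given above.

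Markers of other cells differed between the libraries as well. Red cell markers summed to 249009 (E-T-), 51513 (E+T-), 235229 (E-T+) and 504576 (E+T+), with 5 of 5 lower with exercise in healthy mice and 6 of 6 higher in E+T+ than in either E-T+ or E+T-. Tendon markers summed to 9500, 4677, 1515 and 4091, and 5 of 5 were lower with the tumor in sedentary mice. Fibroblast markers summed to 65160, 40766, 36742 and 36916, with 4 of 6 lower there and 4 of 6 lower with exercise in healthy mice. The summed level of the neutrophil markers was 78.9 (E-T-), 163 (E+T-), 2620 (E-T+) and 1870 (E+T+), with Elane at 0 reads in all 4 and Mpo at 0 in all but E+T-. Macrophage markers summed to 3151, 3139, 5271 and 4661. With the tumor in sedentary mice 3 of 7 were higher and 0 lower, and the median log2 fold change of the 7 was -0.08. Keratinocyte markers summed to 200, 196, 775 and 87.0, and 7 of 7 had reads in cancer control against 3, 3 and 2 in the other libraries. Krt5 and Flg2 had 0 reads outside cancer control, where they had 20 and 148. Areg, described above, was seen in that same library alone. Carcinoma markers summed to 86.1 (E-T-), 46.8 (E+T-), 119 (E-T+) and 56.4 (E+T+). With the tumor in sedentary mice 2 of 5 were higher and 1 lower. Among the listed carcinoma markers, Cldn4 had no reads in any library and Epcam had 1 read in all, in normal exercise. Muscle fibre markers summed to 885055 in cancer control, the lowest of the 4 libraries. The part of these cells in the target genes' levels was not tested.

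The genes whose pattern over the 4 libraries lay nearest to each member were named by Euclidean distance between log2 values centred on the gene's mean, among 10348 genes. With 4 values a gene the measure is coarse. Nearest to Nr3c1 were Slc9a9, at 0.06, and Tsc22d4, at 0.07, the latter a paralog of the target Tsc22d3. Nearest to Ddit4 was Scgb3a1, at 0.16, and the next, Baiap2l1, was at 0.71. The distance was not scaled to the size of a gene's differences, and how many genes share a pattern was not counted. Nearest to Klf15 was Rin1, at 0.27, and to Fkbp5 was Fam46b, at 0.21. Nearest to Errfi1 was Tulp2, at 0.09, to Klf9 was Zfand5, at 0.08, and to Sgk1 was Sec31a, at 0.02. No member was among the 3 nearest genes of another.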

How the data were processed

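RNA from the gastrocnemius was made into QuantSeq 3′ libraries, 1 for each of 4 groups. The authors aligned the reads with Bowtie2 to mm10, counted them with bedtools and quantile-normalized the counts with edgeR; tool versions, annotation and strand use are not given in the sources used here. The deposited values are log2(normalized read count + 1). Here they were turned back into normalized read counts, and each library's reads were rebuilt by inverting a negative binomial quantile adjustment, which returned every deposited value and was tested on simulated data. Rebuilt reads of abundant genes are approximate, by up to 8 reads for Ddit4.

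Samples were grouped by their titles. Differences are of log2 values; a call needed a fold of 2 and a normalized read count of at least 4. Intervals are 95% Clopper-Pearson limits on rebuilt reads, for counting error only. A floor of 3 reads a library was used, since 0 reads allow that many. No test or p-value was possible with 1 library a group. The members, lists and alternatives were chosen with earlier results of these data known. Named genes were the 9 members, up to 3 per list and comparison by size of change at a normalized read count of at least 16, and 3 pattern neighbours per member at a count of at least 64; marker genes are named besides as parts of their lists, and Nr3c2 was named after its values were seen. Alternatives changed the scaling, pseudocount, minimum, fold and depth. Python 3.11.15, NumPy 2.4.6, SciPy 1.17.1, pandas 2.3.3 and matplotlib 3.10.9 were used. Annotated promoter windows are RefSeq's.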

Additional observations from a re-analysis of the deposited data

Results flagged for a closer look

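No member met a criterion for a closer look. Among the genes that the naming rule took from the pathway lists, 7 were called in both exercise comparisons with opposite signs, higher with exercise in healthy mice and lower with exercise in tumor-bearing mice. The value given is the second log2 fold change minus the first. It was -2.94 for Ccl2 (1.20 and -1.74), -2.62 for Cxcl1 (1.43 and -1.19) and -3.21 for Lcn2 (2.12 and -1.10), and -3.02 for Nr1d1 (1.62 and -1.40). It was -5.80 for Ciart (4.28 and -1.52), -5.49 for Cxcl10 (2.66 and -2.83) and -7.29 for Il1b (4.11 and -3.18). With 0 reads in normal control, the last 3 values are set by the pseudocount. Each difference rests on 1 library a group and was not tested.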

How the results depend on the processing

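The number of called members in each comparison, and of members with opposite exercise effects, was recomputed under 11 alternatives. Of 55 such counts, 52 stayed within 1.5 times the value reported, and 3 moved, all with the fold that counts as changed. At a fold of 1.5, exercise in healthy mice called 2 members, Fkbp5 and Klf15. At a fold of 4, exercise in tumor-bearing mice called 0 and the tumor in exercised mice called 3, which were Fkbp5, Klf15 and Ddit4. Scaling by total reads moved the median log2 fold change of all genes to 0.15 for exercise in healthy mice and to -0.19 for the tumor in exercised mice. Of 216 member log2 fold changes recomputed, 30 left the counting interval of the reported value and none that was called changed sign. The largest shift was 0.22. In 3 uncalled values, all for exercise in healthy mice, the sign changed: Sgk1 with total read scaling (0.02) and thinned reads (0.03), and Nr3c1 with thinned reads (0.01). No paired analysis was possible because each group had 1 library. The lowest read count of a member was 52, for Klf15 in normal exercise. With thinned reads, as with total read scaling, the tumor in exercised mice called 5 members, without Zbtb16.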
